A study of Homo sapiens with 2 samples.

Results

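The inhibitors of apoptosis (IAPs), the apoptotic caspases and APAF1 were examined in RNA-seq data from Ramos cells and from Ramos640 cells, their derivative resistant to rituximab-mediated complement-dependent cytotoxicity (CDC). The members were 8 of the 37122 genes in the count table, chosen by name: the initiator caspase genes CASP8, CASP10 and CASP9, the executioner caspase gene CASP6, the apoptosome gene APAF1, and the IAP genes XIAP, BIRC2 and BIRC3. All 8 had reads in both libraries, with 111 reads in the 2 libraries together for CASP10, the member with the fewest.

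Ramos is a Burkitt's lymphoma (BL) cell line of B-cell origin. Ramos640 cells were obtained from it by exposure to rising rituximab concentrations with human serum as the source of complement, and were treated again every 21 days with rituximab and 20% normal human serum to keep the resistance. The sample labels give the maintenance concentration as 640 mg/mL, while the study's methods use the same number with μg/mL. Both lines grew in RPMI medium with fetal bovine serum, and the labels name no rituximab treatment for Ramos cells, the control. RNA of 3 passages was pooled for each line before sequencing, so there was 1 library per line, no spread between cultures could be measured and no statistical test was possible. It is not stated whether Ramos640 was a single clone.

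Caspases are cysteine proteases that are made as inactive precursors. Ligand-bound death receptors recruit caspase-8 and caspase-10 through the adaptor FADD, whereas cytochrome c released from mitochondria drives APAF1 to assemble the apoptosome, on which caspase-9 is activated. These initiators cleave the executioners, caspase-6 among them, which cut nuclear and cytoskeletal proteins. XIAP binds and inhibits caspases directly, while cIAP1 (BIRC2) and cIAP2 (BIRC3) act mainly as ubiquitin ligases on RIPK1 and on components of NF-κB signalling, and BIRC3 is itself a known NF-κB target gene in B cells.

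The 4 member caspases carry the same kind of catalytic centre, and its coding bases are shown because they let the sequences of these relatives be compared where they are most conserved. Each window holds 30 coding bases of the MANE Select transcript (GENCODE v44lift37, GRCh37), and the capitals mark 5 codons, of which the middle one encodes the catalytic cysteine.
CASP8: tttattCAGGCTTGTCAGGGGgataactac
CASP10: ttcatcCAGGCCTGCCAAGGTgaagagata
CASP9: ttcatcCAGGCCTGTGGTGGGgagcagaaa
CASP6: atcattCAGGCATGTCGGGGAaaccagcac
The CASP8 window lies in exon 8 of 9 on the plus strand (chr2:202149802-202149831) and the CASP10 window in exon 9 of 10 on the same strand (chr2:202074059-202074088). The CASP9 window crosses from exon 6 (chr1:15831106-15831127) into exon 7 (chr1:15821940-15821947) on the minus strand, and the CASP6 window from exon 5 (chr4:110615681-110615689) into exon 6 (chr4:110612145-110612165), also on the minus strand. Even in this window CASP8 and CASP10 differed at 12 of 30 bases, CASP8 and CASP9 at 11 and CASP8 and CASP6 at 10. The remaining pairs differed at 8 (CASP10 and CASP9) to 13 bases (CASP10 and CASP6). The longest run that the MANE Select transcripts of CASP8 and CASP10 shared was 16 bases, outside the coding sequence. A read longer than this run fits only 1 of these 2 transcripts without a mismatch.

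BIRC2 and BIRC3 were more alike. Their longest shared run was 60 coding bases in exon 2 of both genes, at chr11:102220808-102220867 in BIRC2 and at chr11:102195412-102195471 in BIRC3, both on the plus strand. It is shown because a read inside it fits both genes.
BIRC2 and BIRC3: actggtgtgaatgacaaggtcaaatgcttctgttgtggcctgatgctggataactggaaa
This run accounted for the 11 stretches of 50 bases that the annotated transcripts of the 2 genes had in common, 0.225% of the BIRC2 stretches and 0.144% of the BIRC3 stretches. Against all other annotated genes, the share of such 50-base stretches found elsewhere in the annotated transcripts was lowest for BIRC2 (0.225%) and highest for APAF1 (9.22%). Most of the APAF1 overlap was with ANKS1B, an opposite-strand gene with 78 reads in Ramos and 49 in Ramos640. CASP6 overlaps CCDC109B on the opposite strand, which had 3097 and 1735 reads, and it is not stated whether the counting used strand, so the reads of CASP6 are less certain than those of the other members. The MANE Select transcript of APAF1 spans chr12:99039068-99129211 and that of XIAP chrX:122993903-123047822, both on the plus strand.

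The library totals were 38030090 reads in Ramos and 30871826 in Ramos640, and a count of 0 allows up to 3 reads, or 0.0789 and 0.0972 CPM (the reads of a gene scaled to the library total). Division by size factors of 1.14 and 0.876 (median of ratios) gave the normalized reads. All 9 B cell markers examined, among them CD22, CD79A and PAX5, had at least 1904 reads in each library. Between the lines, 3 of them were more than 1.5-fold lower in Ramos640 (log2 fold change -1.96 for MS4A1, which encodes the rituximab target CD20, -0.92 for MME and -0.80 for PAX5) and 2 more than 1.5-fold higher (CD79B 0.64 and CD40 0.63). Summed T cell markers came to 1.10 CPM in Ramos and 3.53 in Ramos640. CD3D, CD2, CD5 and CD8A were at 0 in both, whereas CD3E had 1 read in Ramos and 31 in Ramos640, CD247 had 25 and 58, CD4 had 11 and 19, and CD3G had 5 and 1. CD3E, CD247 and CD4 were higher in Ramos640 with intervals above 0, and the part of such cell markers in the values of the members was not tested. Summed monocyte markers came to 0.789 and 1.10 CPM, and summed epithelial markers to 1.16 and 0.518. In such bulk libraries, fewer cells that express a gene and less RNA per cell cannot be told apart. Intervals below are 95% intervals that cover counting error only.

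Caspase-8 RNA was about 2 times as abundant in Ramos as in Ramos640, CASP10 was higher in Ramos640, and the remaining members differed by less than 1.5-fold. Of the 8 members, 1 was more than 1.5-fold higher in Ramos640, the fold criterion of the study, against 14.6% of the 18778 genes with at least 10 reads. Likewise 1 was more than 1.5-fold lower, against 17.3% of these genes. In total 1 member was higher and 7 were lower, with a median log2 fold change of -0.33 against -0.015 over all genes tested. Of all 18778 genes tested, 9162 were higher and 9612 were lower. With the trend of fold change over GC content removed, the median of the members was -0.16, with 2 higher and 6 lower. Of the 15762 tested genes with a GC value, 7423 were then higher and 8339 lower, with a median of -0.030. Without that removal, the interval lay below 0 for 5 members and above 0 for 1, against 31.6% and 29.6% of all genes tested. Among genes with at least 100 reads, a depth that all members reached, these shares were 37.2% and 34.9%, and 12.6% were more than 1.5-fold lower and 9.94% more than 1.5-fold higher.

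**Figure D1:**
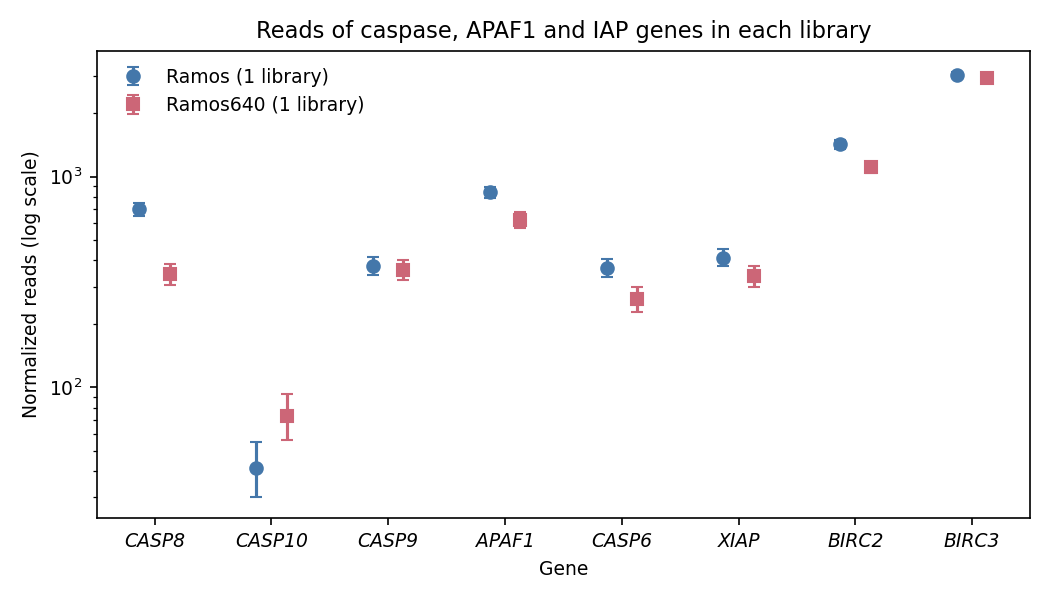
Normalized reads (log axis) of the 8 genes in the Ramos library (circles) and the Ramos640 library (squares), 1 library per cell line, with bars for the 95% Poisson counting interval. The intervals of the 2 libraries are clear of each other for CASP8, CASP10, APAF1, CASP6 and BIRC2, touch for XIAP and overlap for CASP9 and BIRC3.

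Among the initiators recruited to death receptors, CASP8 had 798 Ramos reads and 301 Ramos640 reads. These were 699 and 344 normalized reads, and the Ramos value was the higher by far more than counting error. The log2 fold change, here always Ramos640 over Ramos, was -1.02, with an interval of -1.22 to -0.83. Of all genes tested, 8.43% had a lower value. CASP8 was past the 1.5-fold criterion under every scaling and pseudocount tried, and its log2 fold change was -1.10 on total counts and -0.89 once the dependence on GC content was taken out.

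CASP10, whose product is also recruited through FADD, had far fewer reads. It had 47 Ramos reads and 64 Ramos640 reads, or 41.2 and 73.0 normalized reads. The log2 fold change was 0.81, and the small counts left a wide interval of 0.26 to 1.40, which reaches below the 1.5-fold criterion. The difference was thus in the opposite direction to that of CASP8.

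The balance between 2 genes within a library does not depend on how the libraries are scaled to each other. CASP8 took 94.4% of the combined CASP8 and CASP10 reads in Ramos (interval 92.7% to 95.9%) and 82.5% in Ramos640 (from 78.2% to 86.2%). The log2 ratio of CASP8 to CASP10 was lower by 1.85 in Ramos640 (log2 ratio change -1.85, exact conditional interval -2.46 to -1.25). CFLAR encodes c-FLIP, a catalytically inactive relative of caspase-8 that competes with it for FADD. It had 1075 Ramos reads and 1339 Ramos640 reads, which gave a log2 fold change of 0.70 (0.58 to 0.82). In Ramos there were 0.742 CASP8 reads for each CFLAR read, and in Ramos640 there were 0.225, without correction for length. This was a log2 ratio change of -1.72 with an interval of -1.95 to -1.50, and the ratio change was -1.66 after the GC trend was removed.

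**Figure D2:**
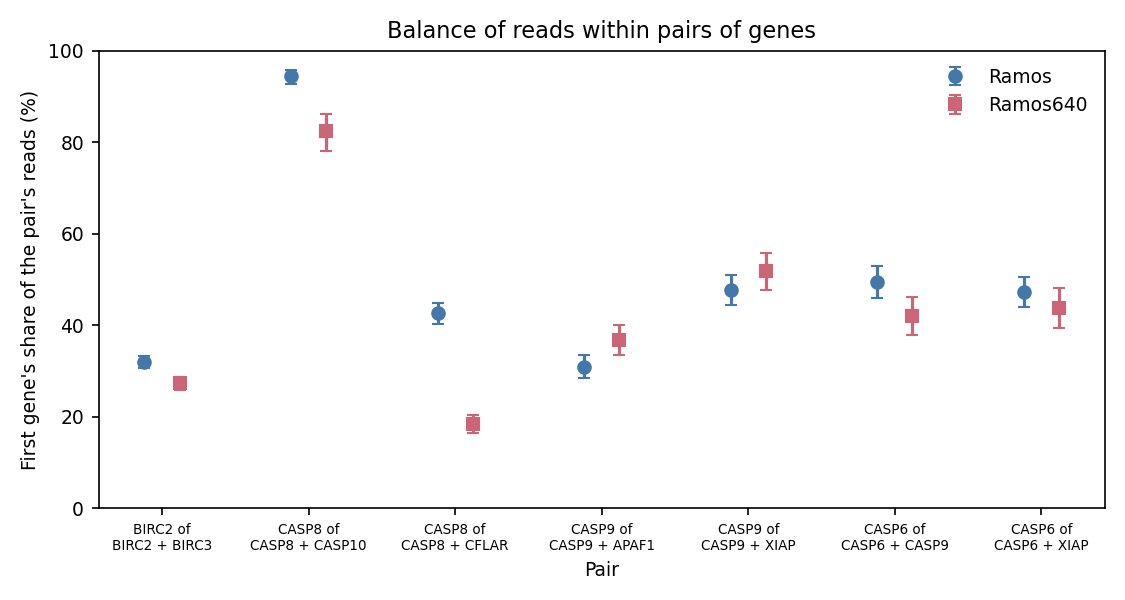
Share of the first gene in the reads of a pair (percent, linear axis) in the Ramos library (circles) and the Ramos640 library (squares), with 95% Clopper-Pearson intervals for counting error. The CASP8 share of the CASP8 and CFLAR reads was 42.6% in Ramos and 18.4% in Ramos640, the widest gap of the 7 pairs plotted.

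Of the apoptosome pair, CASP9 hardly differed between the libraries. It had 430 and 317 reads, or 377 and 362 normalized reads, with a log2 fold change of -0.059 and an interval of -0.27 to 0.15, so a difference was not detectable at this depth. APAF1 had 960 Ramos reads and 544 Ramos640 reads, or 841 and 621 normalized reads, with the lower value in Ramos640. Its log2 fold change was -0.44 (interval -0.59 to -0.29). CASP9 thus took a larger part of the combined CASP9 and APAF1 reads in Ramos640, 36.8% (from 33.6% to 40.1%) against 30.9% (from 28.5% to 33.4%). That difference had a log2 ratio change of 0.38 (interval 0.11 to 0.64), but it came to 0.046 (from -0.22 to 0.31) once the GC trend was removed.

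CASP6, the executioner among the members, had 421 Ramos reads and 229 Ramos640 reads, or 369 and 261 normalized reads. The log2 fold change was -0.50, with an interval of -0.74 to -0.26. CCDC109B, which overlaps it on the opposite strand, was lower by a similar amount (-0.45, interval -0.54 to -0.37), and its part in the CASP6 value was not tested. Relative to CASP9, the CASP6 reads had a log2 ratio change of -0.44 (interval -0.76 to -0.12). Without the GC trend this ratio change was -0.14, and its interval of -0.47 to 0.18 included 0.

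With this scaling the 3 IAP genes had log2 fold changes below 0, and after removal of the GC trend XIAP was at -0.024, BIRC2 at -0.11 and BIRC3 at 0.27, a change of sign for BIRC3. BIRC3, the member with the most reads, had 3462 in Ramos and 2582 in Ramos640, or 3034 and 2947 normalized reads. Its log2 fold change was -0.042 with an interval of -0.12 to 0.032, so the libraries did not differ beyond counting error. BIRC2 had 1621 and 969 reads, or 1420 and 1106 normalized reads. It was lower in Ramos640, with a log2 fold change of -0.36 and an interval of -0.48 to -0.25. XIAP had 471 and 295 reads, or 413 and 337 normalized reads, and its interval of -0.51 to -0.081 around a log2 fold change of -0.29 also lay below 0. Between the neighbours BIRC2 and BIRC3, the balance moved towards BIRC3. BIRC2 held 31.9% of their reads in Ramos (from 30.6% to 33.2%) and 27.3% in Ramos640 (from 25.8% to 28.8%), a log2 ratio change of -0.32 with an interval of -0.46 to -0.18. The log2 ratio change of CASP9 to XIAP was 0.24 (interval -0.069 to 0.54), and that of CASP6 to XIAP was -0.20 (interval -0.53 to 0.12). Neither ratio differed between the libraries beyond counting error. With the GC trend removed, the CASP6 to XIAP ratio change was -0.34, with an interval of -0.66 to -0.021 that lay below 0, and the CASP9 to XIAP ratio change was -0.20 (from -0.50 to 0.11).

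The GC content of the transcripts moved with these values. Across the 10220 protein-coding genes with at least 100 reads, fold changes were lower at low GC content, and the members ranged from 35.8% GC for BIRC3 to 52.8% for CASP9, against a median of 47.5% for those genes. The running median at the GC content of the members was between -0.31 and 0.16 relative to its centre. After its removal none of the 3 IAP genes had an interval below 0. The log2 fold change was -0.024 for XIAP (interval -0.24 to 0.19), -0.11 for BIRC2 (from -0.22 to 0.0089) and 0.27 for BIRC3 (from 0.20 to 0.35). CASP8, APAF1 and CASP6 kept intervals below 0, at -0.89, -0.27 and -0.37, and CASP10 kept its interval above 0 at 0.80. CASP9 then also had an interval just below 0 (-0.22, from -0.44 to -0.010). Total-count scaling moved the median of all genes tested by -0.080 and put BIRC3 at -0.12 with an interval of -0.20 to -0.048. The part of GC content in the differences between the cell lines was not tested.

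**Figure D3:**
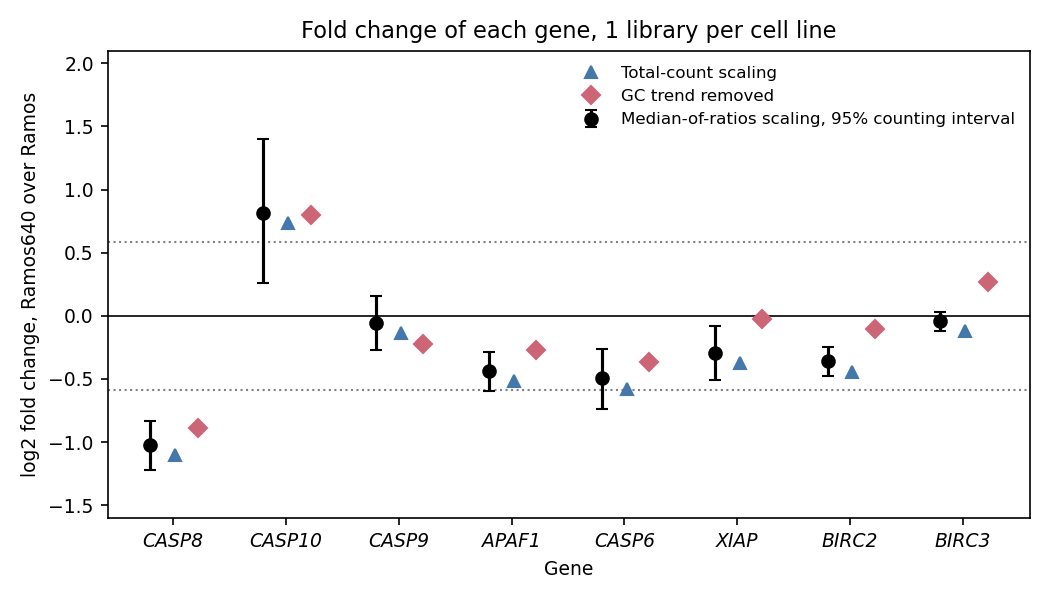
Log2 fold change of Ramos640 over Ramos for each gene with median-of-ratios scaling (circles, bars for the 95% counting interval), on total counts (triangles) and with the GC trend removed (diamonds), 1 library per line. Dotted lines mark 1.5-fold in either direction, and only CASP8 (-1.02) and CASP10 (0.81) lie beyond them in each of the 3 versions.

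Levels of different genes were compared per length, as RPKM, which divides the reads of a gene by its annotated exon length and by the total of the library. BIRC3 had the highest level in both libraries (12.2 RPKM in Ramos and 11.2 in Ramos640), followed by BIRC2 (9.44 and 6.95) and CASP6 (5.70 and 3.82). BIRC3 was above 75.5% of the 12092 protein-coding genes tested in Ramos and above 74.7% in Ramos640. APAF1 followed at 3.25 and 2.27 RPKM. CASP8 (2.90) stood above CASP9 (2.15) in Ramos, with counting intervals that did not overlap, and below it in Ramos640 (1.35 and 1.95). APAF1 and CASP8 were neighbours in the Ramos order with overlapping intervals (from 3.05 to 3.47 and from 2.70 to 3.11), as were APAF1 and CASP9 in the Ramos640 order (from 2.08 to 2.47 and from 1.74 to 2.18). XIAP was low (1.30 and 1.00 RPKM), and CASP10 was lowest (0.139 and 0.232), above 9.34% and 14.6% of the protein-coding genes. These levels rest on the length taken for each gene. With the MANE Select transcript in place of all annotated exons, CASP8 moved up to follow BIRC2 in Ramos at 7.89 RPKM and level with CASP9 in Ramos640 (3.67 and 3.66 RPKM). With the longest transcript, CASP8 followed BIRC2 in Ramos at 7.16 RPKM. In Ramos640 it then stood above CASP9, at 3.33 RPKM (from 2.96 to 3.73) against 2.30 (from 2.05 to 2.57). The order of CASP8 and CASP9 in Ramos640 thus depended on the length taken, and so did that of APAF1 and CASP9 in both libraries. With the MANE Select transcript CASP9 stood above APAF1. In Ramos640 the values were 3.66 RPKM (from 3.265 to 4.08) against 2.45 (from 2.25 to 2.66). In Ramos they were 4.03 against 3.51, with overlapping intervals.

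The rest of the pathway was read from 7 lists of 53 genes, of which 52 had a row and 45 had at least 10 reads. Of these 45, 24 were higher and 21 were lower in Ramos640, with a median log2 fold change of 0.061. By more than 1.5-fold, 5 were higher and 4 lower, against 14.6% and 17.3% of all genes tested. Their intervals lay above 0 for 18 genes and below 0 for 18, against 29.6% and 31.6%. The lists were described by counts and medians only, and no test was applied to them.

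Of the 8 genes that assemble with or regulate caspase-8 and caspase-2, 7 were higher in Ramos640, against 9162 of all 18778 genes tested. Intervals lay above 0 for 6 of the 7 (29.6% of all genes tested), and the group had a median log2 fold change of 0.26. With the GC trend removed, 5 were higher, 3 of them with intervals above 0, against 4470 of the 15762 tested genes with a GC value. The median was then 0.16, and FADD (-0.093) and PIDD1 (-0.099) turned to values below 0 with intervals that included 0. CFLAR, given above, and PEA15, a death effector domain protein that binds FADD and caspase-8, were more than 1.5-fold higher. They were 2 of the 8, against 14.6% of all genes tested. PEA15 had 3447 Ramos reads and 4244 Ramos640 reads (log2 fold change 0.68, interval 0.62 to 0.75), and its value of 0.54 without the GC trend was not past 1.5-fold. FADD itself, the adaptor, had 1969 and 1662 reads (0.14), and RIPK1, the kinase modified by the cIAPs, had 482 and 436 (0.24). CRADD (0.31) and PIDD1 (0.11), which build the caspase-2 platform, and DEDD (0.29) were higher as well, with an interval that included 0 for PIDD1. The exception was DEDD2, a nuclear death effector domain protein, with 773 and 414 reads and a log2 fold change of -0.52. With the GC trend removed, DEDD2 was at -0.77 (from -0.95 to -0.60). It was then more than 1.5-fold lower, as were 2522 of the 15762 tested genes with a GC value. The intervals of RIPK1 (0.17, from -0.017 to 0.36) and CRADD (0.25, from -0.011 to 0.51) then included 0. Of the 7 death effector domain genes read here (CASP8, CASP10, FADD, CFLAR, PEA15, DEDD and DEDD2), 2 had an interval below 0, CASP8 and DEDD2. The others had an interval above 0. Over all genes tested, 31.6% had an interval below 0 and 29.6% above 0. This set was not 1 of the 7 lists.

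CASP2, which encodes the initiator activated on the PIDD1 platform, had 1523 Ramos reads and 1161 Ramos640 reads. Its log2 fold change was -0.010, with an interval of -0.12 to 0.10 that included 0.

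Among the other IAP genes, 3 had reads and all 3 had intervals below 0, against 31.6% of all genes tested. BIRC5, which encodes survivin, a protein of dividing cells, had 5585 and 4035 reads (-0.088). BIRC6, a very large IAP with ubiquitin ligase activity, had 4980 and 3101 reads (-0.30), and NAIP, a sensor of bacterial proteins, had 94 and 46 reads (-0.64, interval -1.19 to -0.13). With the GC trend removed NAIP was at -0.49, with an interval of -1.04 to 0.025 that included 0. BIRC7 and BIRC8 had no reads in either library.

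IAP antagonists and cofactors did not move in 1 direction, with 3 of 7 higher and 4 lower. Of all 18778 genes tested, 9162 were higher and 9612 lower. With the GC trend removed, 4 of the 7 were higher and 3 lower. DIABLO encodes Smac, which is released from mitochondria and displaces caspases from XIAP. It had 1910 and 1622 reads (log2 fold change 0.15, interval 0.049 to 0.24). HTRA2, a mitochondrial protease that also binds IAPs, had 1223 and 989 reads (0.075), with an interval that included 0. TRAF2, which holds the cIAPs at TNF receptors, had 1110 and 1234 reads (0.53), whereas TRAF1, its partner and an NF-κB target, had 1720 and 847 (-0.64). TRAF1 was the only 1 of the 7 past 1.5-fold, and 17.3% of all genes tested were more than 1.5-fold lower. AREL1, an antiapoptotic ubiquitin ligase of IAP antagonists, had 2736 and 1637 reads (-0.36), and GSPT1, whose processed form binds IAPs, had 9190 and 6753 (-0.063, and 0.098 with the GC trend removed). XAF1, an XIAP-associated factor, had 6 and 4 reads, with an interval that included 0.

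Of the 7 cofactors and regulators of the apoptosome, 5 had intervals below 0 and 2 above, against 31.6% and 29.6% of all genes tested. CYCS, which encodes cytochrome c, had 10422 and 6418 reads (log2 fold change -0.32), CSE1L had 7222 and 4310 (-0.36), APIP, an APAF1-interacting protein, had 1377 and 855 (-0.31), CARD8 had 999 and 653 (-0.23) and PTMA, reported to restrain apoptosome formation, had 53584 and 39118 (-0.073). The GC-trend removal moved the median of this list from -0.23 to -0.093, and the interval of CARD8 then included 0 (-0.065, from -0.21 to 0.078). ANP32A, reported to promote apoptosome activity, was higher in Ramos640 with 26880 and 24555 reads (0.25). AVEN, which binds APAF1 and Bcl-xL and inhibits apoptosis, was the only one past 1.5-fold, with 505 and 669 reads and a log2 fold change of 0.79 (interval 0.62 to 0.96). Over all genes tested, 14.6% were more than 1.5-fold higher.

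The 16 substrates of caspases and nuclear effectors of cell death had a median log2 fold change of 0.048. Of their intervals, 6 lay above 0 and 6 below, against 29.6% and 31.6% of all genes tested. With the GC trend removed, the median was -0.063, with 4 intervals above 0 and 7 below. Of the 15762 tested genes with a GC value, 4470 then had an interval above 0 and 5162 below. The largest differences were those of LMNA, which encodes A-type lamins, with 136 reads in Ramos and 32 in Ramos640 (-1.68), and GSN, which encodes the actin-severing protein gelsolin, with 213 and 81 reads (-1.01). The B-type lamin genes differed less, LMNB1 with 6602 and 4741 reads (-0.097) and LMNB2 with 3959 and 3617 (0.25). ENDOG, a mitochondrial nuclease, had 763 and 817 reads (0.48), and DFFB, the caspase-activated DNase, had 309 and 307 (0.37), while its inhibitor DFFA had 2549 and 2005 (0.035). With the GC trend removed, the intervals of DFFB (0.20, from -0.027 to 0.44) and LMNB2 (0.033, from -0.032 to 0.098) included 0.

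**Figure D4:**
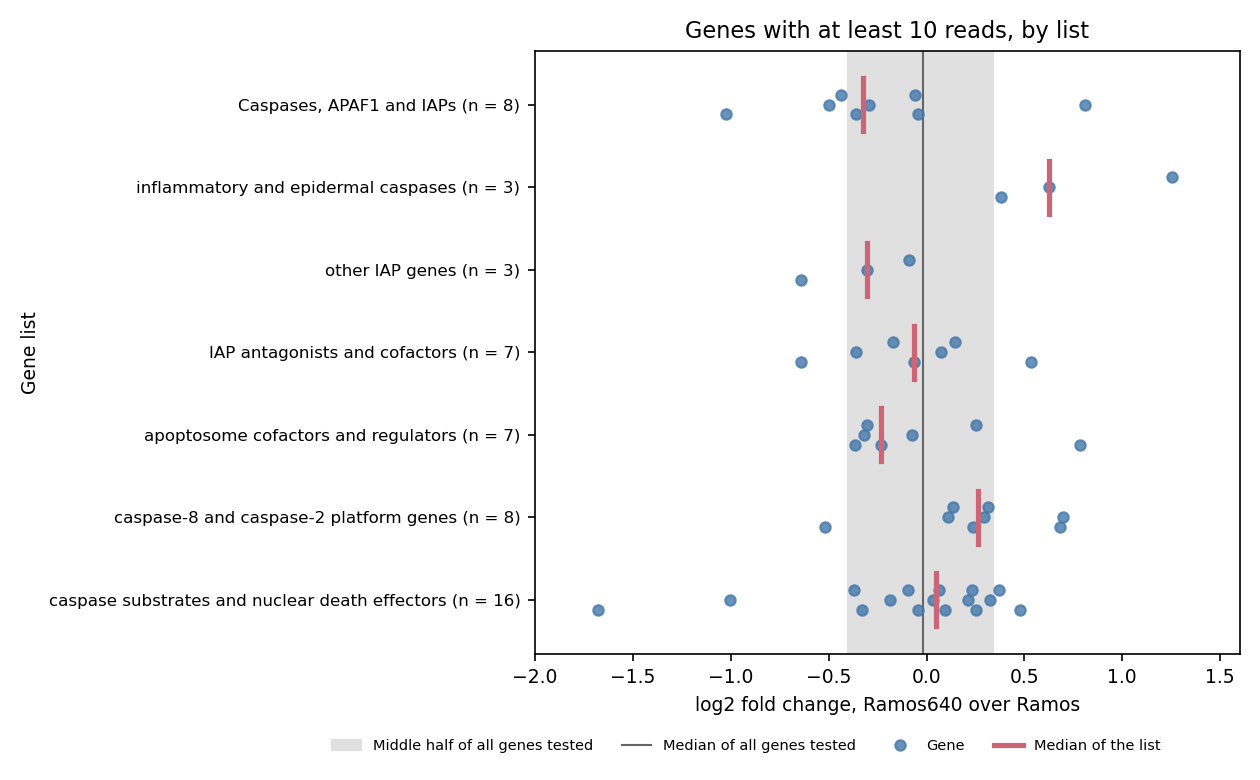
Log2 fold change of Ramos640 over Ramos for each gene with at least 10 reads (points, spread vertically for legibility), by list for lists of more than 1 gene, with the list median (red bar). The line marks the median of all 18778 genes tested (-0.015) and the grey band their quartiles (-0.40 and 0.34), and the medians of all lists plotted lie inside the band except that of the inflammatory and epidermal caspases (0.63, from 3 genes).

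The genes beside each member were examined to see whether whole stretches of the genome moved with it. CASP10 and CASP8 lie next to each other on chromosome 2, after CFLAR. The 10 nearest protein-coding genes with at least 100 reads, 5 on each side, ranged from -1.06 to 0.70 with a median of -0.091, and they were split into 5 higher and 5 lower. CFLAR (0.70) was the next gene on one side and TRAK2 (0.031) on the other, so CASP8 did not share its difference with either. STRADB, beyond TRAK2, had 317 and 116 reads (-1.06), and NDUFB3, beyond CFLAR, had 3334 and 1494 (-0.78). These were the 2 of the 10 that were more than 1.5-fold lower, and 1, CFLAR, was more than 1.5-fold higher. Of all genes with at least 100 reads, 12.6% were more than 1.5-fold lower and 9.94% higher. BIRC3 and BIRC2 lie together on chromosome 11, where 7 of 10 neighbours were lower, against 9612 of all 18778 genes tested. The median of these neighbours was -0.32, beside -0.36 for BIRC2 and -0.042 for BIRC3. With the GC trend removed BIRC2 was at -0.11 and BIRC3 at 0.27. The trend was not removed from the values of neighbours at any locus. TMEM123, the next gene after BIRC2, had 11041 and 6770 reads (-0.32), and KIAA1377, the next before BIRC3, had 125 and 68 (-0.49).

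Around APAF1 on chromosome 12 the median of 10 neighbours was -0.30, with 7 lower, and around CASP6 on chromosome 4 it was -0.039, with 5 lower. Of all 18778 genes tested, 9612 were lower. The 2 genes nearest to CASP6 were both lower, CCDC109B (-0.45) and PLA2G12A (-0.48, with 1120 and 615 reads). IKBIP, next to APAF1, had 537 and 426 reads (0.047). Around CASP9 on chromosome 1 the median was 0.051, with EFHD2 (0.45) and DNAJC16 (-0.13) as the nearest genes. Around XIAP on the X chromosome it was -0.27, with 7 lower, and the nearest genes were THOC2 (-0.44) and STAG2 (-0.58). The next gene after STAG2 was SH2D1A, an adaptor of lymphocyte receptors, with 6 reads in Ramos and 478 in Ramos640 (6.45, interval 5.56 to 8.15).

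**Figure D5:**
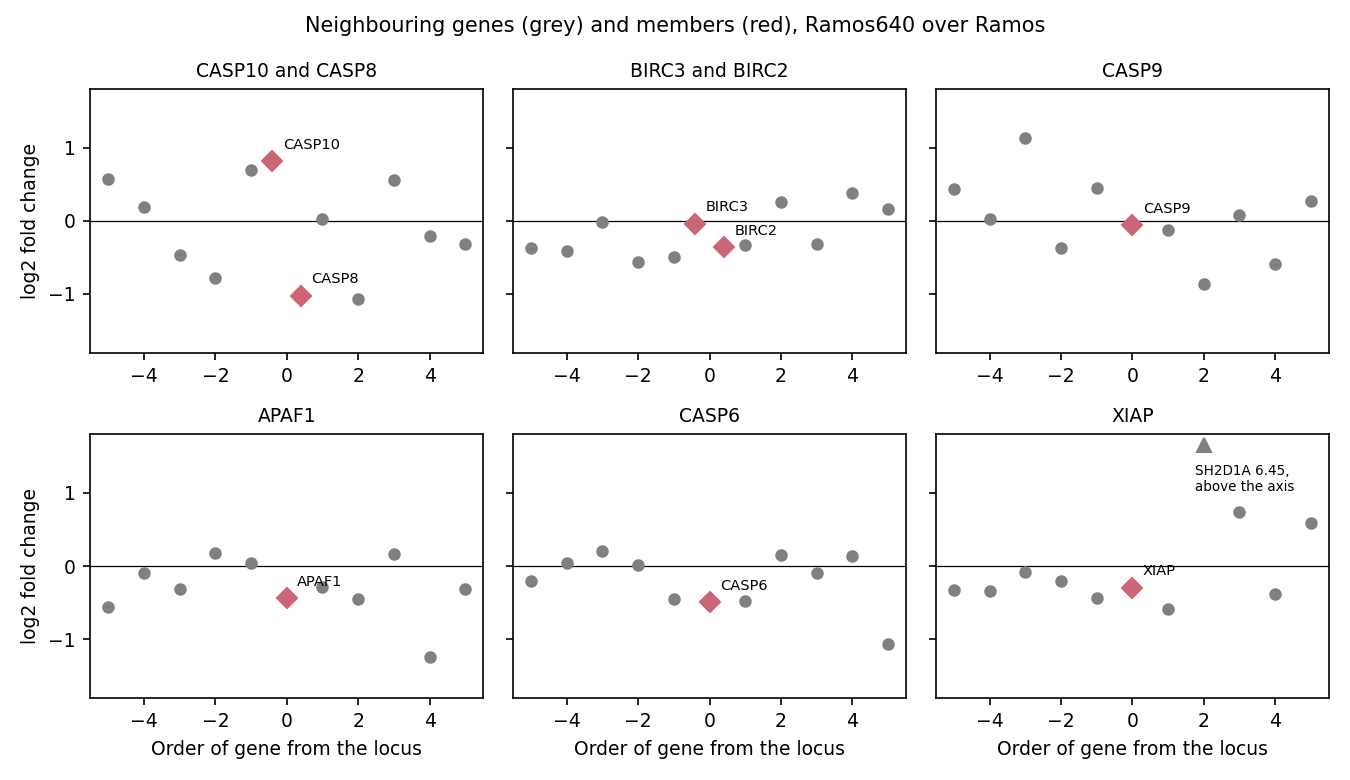
Log2 fold change of Ramos640 over Ramos (vertical axis) for the members (red diamonds) and the 5 protein-coding genes with at least 100 reads on each side (grey circles), in their order along the chromosome from the locus. CASP8 (-1.02) and CASP10 (0.81) lie side by side with opposite values, and SH2D1A (6.45), the second gene after XIAP, is drawn as a triangle at the edge of the axis.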

How the data were processed

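RNA-seq was performed on Ramos and Ramos640 cells with an RNA-Seq kit for Ion Proton per the labels (the study's methods name the Ion Total RNA-seq kit), from RNA pooled over 3 passages per line. According to the study's methods, adaptors were trimmed and MapSplice placed the reads on GRCh37. The deposited values used here were read counts per gene. The counting program, annotation, treatment of reads that fit several genes and use of strand are not given in the sources used here. The genes and lists were chosen with earlier results of these data known.

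Counts were scaled by median-of-ratios size factors over genes with reads in both libraries, as in DEseq, which the study used. Log2 fold changes used a pseudocount of 1, and their 95% intervals were Clopper-Pearson limits on the fraction of a gene's reads that came from Ramos640. Ratios of 2 genes used the exact conditional interval of the odds ratio (scipy 1.17.1). Genes with 10 or more reads over both libraries counted as tested, and "called" means past 1.5-fold. No dispersion can be estimated from 1 library per line, so no count model was fitted, and edgeR (4.0.16) served only for TMM factors. The GC trend was a running median across 500 coding genes with 100 or more reads each. Lengths, GC content and positions came from GENCODE v44lift37, matched for 26511 rows by symbol and 2227 by older symbol. SEPT4, on 1 list, had no row under its symbol, and 3 listed genes are not reported here. Named genes were the members, every gene of a list of up to 8 with reads, the 2 largest rises and falls of the longer list, the genes of 7 pairs and the nearest neighbours. STRADB, NDUFB3, SH2D1A, LMNB1, LMNB2, DFFA and the B and T cell markers were named after their values were seen. The scaling, the fold calls and the counting intervals were tested on simulated counts that held counting error only, with no spread between cultures. The GC trend, gene ratios, levels and neighbours were not part of that test.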

Additional observations from a re-analysis of the deposited data

How the results depend on the processing

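Scaling by TMM factors or total counts, pseudocounts of 0.1 and 10, minimums of 1 and 100 reads and removal of the GC trend were tried. The counts of members past 1.5-fold, 1 higher and 1 lower, were the same under each of these. The log2 fold changes of CASP8, CASP10, CASP9 and CASP6 stayed inside their main intervals under every alternative. With the GC trend removed, APAF1 came to -0.27, XIAP to -0.024, BIRC2 to -0.11 and BIRC3 to 0.27, and 2 members had an interval above 0 in place of 1. The same setting put the median of the apoptosome cofactors at -0.093 and that of the caspase substrates at -0.063, the ratio of CASP9 to APAF1 at 0.046 and that of CASP9 to XIAP at -0.20. On total counts BIRC3 was at -0.12, the median of the other IAP genes at -0.38 and that of the apoptosome cofactors at -0.31. The cause of these shifts was not tested. Of 32 levels recomputed with another gene length (the MANE Select length was chosen after seeing the data), 28 moved beyond counting error. No paired analysis was possible because each cell line has 1 library, and for the same reason no library could be left out. Depth limits CASP10 most, with 47 and 64 reads.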

Other observations

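The inflammatory caspases process cytokines and gasdermin D rather than apoptotic substrates. On a list of 8 inflammatory and epidermal caspase genes and their CARD-only relatives, only 3 had reads. All 3 were higher in Ramos640, against 9162 of all 18778 genes tested. By more than 1.5-fold 2 were higher, against 14.6% of all genes tested. CASP4, which senses bacterial lipopolysaccharide, had 552 Ramos reads and 553 Ramos640 reads, for a log2 fold change of 0.38 (interval 0.21 to 0.56). CASP1, the caspase of inflammasomes, had 31 and 58 reads (1.25, interval 0.63 to 1.96), and CARD16, a CARD-only relative of caspase-1, had 19 and 23 (0.63), with an interval that included 0. With the GC trend removed, CASP4 was at 0.65, CASP1 at 1.42 and CARD16 at 0.80 (from -0.11 to 1.79). All 3 were then more than 1.5-fold higher, as were 1808 of the 15762 tested genes with a GC value. Stretches shared by CASP1 and CARD16 could have been counted for either gene. CASP5, CASP12, CASP14, CARD17 and CARD18 had no reads in either library, which allows up to 3 reads each.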
